A study of Homo sapiens with 10 samples.

Results

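The transcriptome of untreated HepG2 cells was described from the 5 control libraries of a series of 10, in which the other 5 libraries came from cells exposed to tunicamycin and were not used here. HepG2 is an established human hepatoma line that grows as an epithelial sheet. The control cells were given regular growth medium for 17 h, and the experiment was carried out 5 times on separate days, so that each library came from a separate culture and is named by its replicate number. Sequencing started from the polyadenylated 3′ end of each messenger RNA (QuantSeq), so that a transcript gives about 1 fragment whatever its length, and levels are compared between genes as CPM, the count divided by the total of the library and multiplied by 1000000. Values are means ± SD over the 5 libraries (n = 5) unless stated otherwise.

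Hepatocytes make most of the proteins of blood plasma, clear ammonia through the urea cycle, keep blood glucose steady, and oxidise and conjugate foreign compounds. Fetal hepatoblasts, from which hepatocytes arise, make alpha-fetoprotein and insulin-like growth factor 2 and divide rapidly, and many liver tumours resume parts of that state. Hepatoma lines grown on plastic are known to keep part of the secretory programme and to lose much of the metabolic one.

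The 5 libraries held 4242538 to 4888292 counts, and 3 counts in a library corresponded to 0.614 to 0.707 CPM, the level that a count of 0 allows for. All pairs of libraries differed by more than counting error. Replicate 1 stood apart from the other 4. Among 6066 genes with a mean of at least 20 CPM and a count in every library, the Pearson correlation of log2 levels across genes was 0.948 to 0.973 for pairs with replicate 1 and 0.980 to 0.987 for the other pairs. The mean level of AFP, its ratio to ALB and the median spread between cultures are therefore given with and without it. Means of other genes include replicate 1. The median level of protein-coding genes with a count in every library changed little with transcript length, with 25.5 CPM in the shortest, 18.4 CPM in the middle and 28.2 CPM in the longest of 5 near-equal groups by length.

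Of the 32738 genes in the table, 12422 (37.9%) had at least 1 count in every library, and 16285 (49.7%) had 0 counts in all of them. Protein-coding genes were seen more often, with 11060 of 18974 (58.3%) counted in every library and 5925 (31.2%) at 0. Long non-coding RNA genes went the other way, with 1017 of 11628 counted in every library and 8903 at 0. The median level of the protein-coding genes counted in every library was 23.1 CPM, and 86 to 93 genes per library exceeded 1000 CPM.

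A few transcripts carried much of the mass. Ranked by mean level, 13 genes held 25% of all counts and 262 held 50%, and without the mitochondrial transcripts 678 genes held 50%. The 13 protein-coding genes of the mitochondrial genome encode subunits of the respiratory chain and of ATP synthase. They took 23.9 ± 1.12% of counts, with 22.7% in the lowest library and 25.2% in the highest. The 3′ ends of MT-ATP8, MT-ATP6 and MT-ND4L overlap MT-ATP6, MT-CO3 and MT-ND4 on the same strand, so that the division of reads among these genes is uncertain. The top 9 places were all mitochondrial, led by MT-ND4 (complex I) at 43230 ± 6424 CPM and MT-ATP6 (ATP synthase) at 37512 ± 2586 CPM. Cytosolic ribosomal protein genes took a further 8.33 ± 0.243%. Of the 87 genes of that family, 82 were counted in every library, beside 58.3% of protein-coding genes.

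Among nuclear genes, APOB ranked first. APOB, the structural protein of very-low-density lipoprotein, stood at 7673 ± 388 CPM, next to RPS27A (a ribosomal protein fused to ubiquitin) at 7247 ± 629 CPM. APOA2, a protein of high-density lipoprotein, followed at 5632 ± 419 CPM. The remaining places down to the 30th overall went to a further 3 mitochondrial transcripts (MT-ND5, MT-CO1 and MT-ND4L), to ribosomal proteins such as RPL37A (5423 ± 345 CPM) and RPS12 (3764 ± 170 CPM), to the nuclear RNA MALAT1 (4738 ± 522 CPM), to the iron-storage light chain FTL (4618 ± 562 CPM), to the chaperones HSP90AA1 (3579 ± 276 CPM) and HSP90AB1 (2550 ± 312 CPM), and to the plasma proteins AFP, ALB, AHSG (2372 ± 144 CPM) and APOA1. Thus 6 of the 30 most abundant transcripts encoded secreted plasma proteins.

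**Figure D1:**
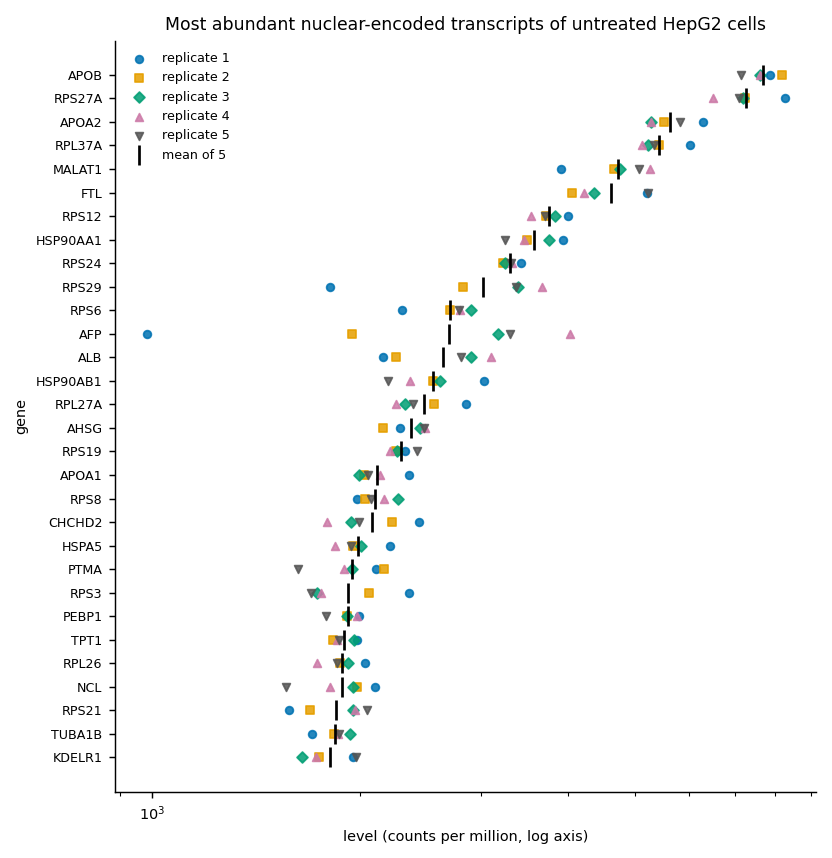
Levels of the 30 most abundant nuclear-encoded transcripts in CPM (horizontal log axis), with 1 symbol per untreated library and a vertical tick at the mean of 5. APOB leads at a mean of 7673 CPM, and AFP has the widest spread of the plasma proteins, from 984 to 4027 CPM.

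The 6 hepatic markers used to check the identity of the cells were all counted in every library. APOB was at 7850, 8185, 7604, 7599 and 7126 CPM in replicates 1 to 5, and APOA1, the main protein of high-density lipoprotein, was at 2360, 2027, 1995, 2141 and 2053 CPM. Both were even, with a coefficient of variation of 5.06% and 6.95%. ALB, which encodes serum albumin, was at 2157, 2256, 2893, 3102 and 2805 CPM. AFP, its fetal counterpart and a serum marker of hepatocellular tumours, was at 984, 1951, 3176, 4027 and 3303 CPM. AFP was thus low in replicate 1, intermediate in replicate 2 and high in the other 3, and its coefficient of variation of 45.0% was far above the 15.7% of ALB. SERPINA1, which encodes alpha-1-antitrypsin, was at 288, 354, 358, 455 and 379 CPM. GPC3, a cell-surface proteoglycan of fetal liver and liver tumours, was the lowest of the 6 at 27.8, 36.3, 30.1, 38.6 and 38.7 CPM, which placed it at rank 4357 by mean level.

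Which of AFP and ALB was the more abundant depended on the library. The log2 ratio of AFP to ALB was -1.13 and -0.21 in replicates 1 and 2, and 0.13, 0.38 and 0.24 in replicates 3, 4 and 5, so that AFP was higher in 3 of 5 libraries. The mean log2 ratio was -0.12 ± 0.61 (exact two-sided sign-flip permutation test, p = 0.875, n = 5). Without replicate 1 it was 0.13 ± 0.25, with AFP higher in 3 of 4 libraries (same exact test, p = 0.375). With 5 libraries this exact test cannot go below p = 0.0625, and with 4 not below 0.125. The mean level of AFP was 2688 ± 1210 CPM over the 5 libraries and 3114 ± 861 CPM without replicate 1.

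The ALB and AFP genes lie next to each other on chromosome 4 in the same orientation (GRCh38, 73397114 to 73421482 and 73431138 to 73456174). Their promoters are shown because the order of their levels differed between libraries and both hold the letters GTTAAT, which are known from the promoters of many liver genes. The promoter of TOP2A, a DNA topoisomerase of dividing cells and the highest of the mitotic genes, is shown beside them. Each window runs 5′ to 3′ on the strand of the gene, from 250 bases before the transcription start to 50 bases after it (RefSeq, GRCh38.p14, at chr4:73404037-73404336 on the plus strand for ALB, chr4:73435971-73436270 on the plus strand for AFP and chr17:40417847-40418146 on the minus strand for TOP2A). Capitals mark every copy, on either strand, of the 4 runs of letters searched, which were GTTAAT, the TATA box letters TATAAA, the letters CGCG, and CCAAT, which is printed as ATTGG where it lies on the opposite strand.
ALB: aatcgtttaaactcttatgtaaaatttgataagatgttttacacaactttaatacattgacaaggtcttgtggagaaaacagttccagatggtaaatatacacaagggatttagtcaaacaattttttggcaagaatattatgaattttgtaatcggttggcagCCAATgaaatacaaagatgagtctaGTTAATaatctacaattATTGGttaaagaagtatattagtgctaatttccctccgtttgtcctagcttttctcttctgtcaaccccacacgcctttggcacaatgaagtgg
AFP: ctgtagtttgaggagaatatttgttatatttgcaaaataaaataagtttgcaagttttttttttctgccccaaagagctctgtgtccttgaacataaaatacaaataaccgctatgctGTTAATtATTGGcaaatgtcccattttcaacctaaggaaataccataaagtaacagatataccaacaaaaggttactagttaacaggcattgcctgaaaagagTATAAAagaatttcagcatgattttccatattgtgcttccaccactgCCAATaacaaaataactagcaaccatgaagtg
TOP2A: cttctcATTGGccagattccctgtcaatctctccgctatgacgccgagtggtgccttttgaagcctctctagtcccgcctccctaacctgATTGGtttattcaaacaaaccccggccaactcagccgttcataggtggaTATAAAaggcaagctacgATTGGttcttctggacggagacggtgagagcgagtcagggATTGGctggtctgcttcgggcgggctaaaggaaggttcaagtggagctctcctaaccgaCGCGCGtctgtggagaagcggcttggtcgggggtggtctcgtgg
GTTAAT began 61 bases upstream of the start in ALB and 132 bases upstream in AFP, and was not in the TOP2A window. TATAAA began 29 bases upstream in AFP and 111 bases upstream in TOP2A. CCAAT was in all 3 windows, with 4 copies in TOP2A that began 244, 160, 93 and 53 bases upstream, copies 86 and 44 bases upstream in ALB, and in AFP a copy 125 bases upstream and another after the start. CGCG was in TOP2A alone, in 2 overlapping copies after the start.

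The same letters were counted on both strands in the promoters of whole lists, taking a gene as positive when any of its promoters held them. Promoters were found for 68 of 93 secreted plasma protein genes, 50 of 71 adult hepatocyte enzyme genes and 20 of 24 mitotic genes, and for 27305 genes in all. GTTAAT was in 32.4% of the secreted plasma protein genes, 12% of the adult enzyme genes and 0 of 20 mitotic genes, beside 8.27% of all genes. The share was 45.8% of the 24 secreted plasma protein genes with a mean of at least 100 CPM, and 2 of the 8 at 0 counts also held the letters. CCAAT was in 85% of the mitotic genes and in 34 of the 68 secreted plasma protein genes, beside 39.7% of all genes. TATAAA was in 19.1% of the secreted plasma protein genes and 2 of 20 mitotic genes, beside 14.0% of all genes. CGCG, a run of CpG dinucleotides, was in all 20 mitotic genes, in 52.8% of all genes and in 11.8% of the secreted plasma protein genes. These are matches of letters and not measured binding, and no promoter of APOA1, APOB or GPC3 was in the table used. The lists also differed in base composition. Median promoter GC content was 52.7% for the secreted plasma protein genes, 58.7% for the adult enzyme genes, 60.75% for the mitotic genes and 58.3% over all. The part of base composition in the shares above was not tested.

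Secreted plasma proteins took 3.84 ± 0.204% of all counts, with 3.62% in the lowest library and 4.08% in the highest. Of the 93 genes on the list, 70 were counted in every library and 11 were at 0 in all, beside 58.3% and 31.2% of protein-coding genes. The median over the list was 28.7 CPM, beside 3.92 CPM over all protein-coding genes, and 34 members had a mean of at least 100 CPM. After the 6 named above came the blood pressure precursor AGT at 1486 ± 282 CPM. Carriers of lipid and metal included APOC1 at 1430 ± 184 CPM, the iron carrier TF at 1353 ± 264 CPM, APOH at 1199 ± 70.6 CPM and APOE at 668 ± 113 CPM. AMBP, precursor of alpha-1-microglobulin, was at 1189 ± 84.0 CPM.

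Clotting genes were present unevenly. The 3 fibrinogen chains, which lie together on chromosome 4, were all abundant, with FGB at 695 ± 61.2, FGG at 415 ± 70.9 and FGA at 342 ± 29.1 CPM. Prothrombin (F2) was at 642 ± 36.2 CPM. Factors F5, F10, F7 and F11 were at 104 ± 11.7, 36.3 ± 3.47, 35.1 ± 1.69 and 18.5 ± 1.78 CPM, and were, like CFI, named after their values were seen. F9, F13B and PLG, the gene of plasminogen, had 0 counts. In the complement system, C3, the central component, was at 481 ± 24.8 CPM and the protease CFI at 177 ± 13.8 CPM, whereas C9 had 0 counts.

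Plasma proteins that the liver raises in inflammation ranged from 0 counts to high levels. They are no fixed list, and those below were singled out after their values were seen. The fibrinogen chains, C3 and SERPINA1, which belong to them, were abundant, as given above. CRP had 0 counts, SAA1 and SERPINA3 had 1 count each over the 5 libraries, and SAA2 was at 0.206 ± 0.251 CPM. The 3′ end of SERPINA3 overlaps an exon of another gene on the same strand, so that its low count is uncertain. HP (haptoglobin) was at 10.4 ± 2.92 CPM and HAMP, which encodes the iron hormone hepcidin, at 0.183 ± 0.306 CPM. ORM1 and ORM2, the orosomucoids, were higher at 102 ± 22.6 and 101 ± 18.7 CPM, and the constitutive SAA4 was at 211 ± 16.2 CPM.

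Neighbouring genes differed strongly in level. On chromosome 4, from GC to AFM (71741696 to 73504001), ALB stood at 2643 ± 414 CPM and AFP at 2688 ± 1210 CPM. AFM, their paralogue beyond AFP, was at 0.307 ± 0.337 CPM. GC, the vitamin D-binding paralogue, had 0 counts but does not adjoin ALB. Between GC and ALB lie NPFFR2 (3.48 ± 0.909 CPM), ADAMTS3 (0 counts), COX18 (18.2 ± 4.04 CPM) and ANKRD17 (210 ± 9.86 CPM). On chromosome 14, from SERPINA10 to SERPINA3 (94280460 to 94624055), SERPINA5 was at 493 ± 37.5, SERPINA1 at 367 ± 59.8 and SERPINA6, the corticosteroid carrier, at 131 ± 9.13 CPM, whereas SERPINA9 had 0 counts and SERPINA12 1 count in all. On chromosome 11 (116789367 to 116837622), APOA1 at 2115 ± 147 CPM lay beside APOC3 at 146 ± 7.45, APOA5 at 62.5 ± 5.81 and APOA4 at 8.79 ± 2.48 CPM. On chromosome 19, APOE and APOC1 were abundant while the adjoining APOC4 and APOC2 had 0 counts. The 3′ ends of both APOC4 and APOC2 overlap exons of the read-through gene APOC4-APOC2, itself at 0, so that their reads could not be assigned to 1 gene and their 0 is uncertain.

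Adult hepatocyte enzymes took 0.238 to 0.283% of counts. Of 69 genes in the table, 48 (69.6%) were counted in every library and 13 (18.8%) were at 0, beside 58.3% and 31.2% of protein-coding genes, and the median was 7.94 CPM beside 3.92 CPM. The highest were ASGR2 (404 ± 39.6 CPM) and ASGR1 (282 ± 68.7 CPM), the subunits of the receptor that clears desialylated glycoproteins, and FABP1, which carries fatty acids (308 ± 54.5 CPM). CYP27A1 (sterol 27-hydroxylation) was at 216 ± 17.4 CPM and CBS (transsulfuration) at 178 ± 20.6 CPM. ASGR1 was lowest in replicate 1, at 166 CPM.

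The urea cycle was incomplete in the counts. CPS1, which makes carbamoyl phosphate, was at 17.2 ± 4.38 CPM, ASS1 at 23.1 ± 0.989 CPM and ASL at 21.1 ± 1.35 CPM, whereas OTC, which acts between CPS1 and ASS1, and ARG1, which acts after ASL, had 0 counts in all 5 libraries. CPS1 was lowest in replicate 1, at 9.61 CPM, beside 17.4 to 20.5 CPM in the others. Of the enzymes of glucose release, G6PC was at 0 counts, PCK1 at 0.421 ± 0.243 CPM and FBP1 at 0.668 ± 0.454 CPM, whereas PCK2, the mitochondrial form of PCK1, was at 65.1 ± 4.59 CPM and the glycogen phosphorylase PYGL at 48.97 ± 4.96 CPM. GYS2 (liver glycogen synthase), the alcohol dehydrogenases ADH1A and ADH1B, TDO2 and KMO of tryptophan breakdown, SDS, GLYAT, XDH and DPYS also had 0 counts. OTC, ASS1, ASL, PCK1, PCK2 and FBP1 were chosen as steps of these pathways after their values were seen.

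Of 71 drug-metabolising enzyme genes, 39 (54.9%) were counted in every library and 19 (26.8%) were at 0, near the 58.3% and 31.2% of all protein-coding genes, and the median was 1.07 CPM beside 3.92 CPM. Reductases, transferases and esterases led, with NQO1 (quinone reduction) at 490 ± 29.6, MGST1 at 281 ± 26.5, MGST2 at 257 ± 67.1 and CES2 at 230 ± 15.3 CPM. POR, the electron donor of the microsomal cytochromes P450, was at 223 ± 13.8 CPM. Of the P450 enzymes that depend on it, the main drug-metabolising forms were at or near 0, with CYP1A2, CYP2A6, CYP2C8, CYP2C19 and CYP3A4 at 0 counts in every library, CYP2D6 at 1 count in all and CYP2E1 at 0.338 ± 0.442 CPM. Over the whole P450 family, 18 of 54 genes were counted in every library and 22 were at 0, and the highest after CYP27A1 was CYP2W1 at 136 ± 37.7 CPM. The glucuronosyltransferases UGT2B4, UGT2B15 and UGT2B17 and the flavin monooxygenase FMO1 had 0 counts. UGT1A1 also had 0 counts, but its 3′ end is shared with other UGT1A genes, so that its 0 is uncertain.

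Transporters of the canalicular membrane, which faces the bile, and of the basolateral membrane, which faces the blood, included 20 of 30 genes (66.7%) counted in every library and 7 (23.3%) at 0, beside 58.3% and 31.2% of protein-coding genes. The export pumps ABCB1 (194 ± 10.3 CPM) and ABCC2 (124 ± 14.9 CPM) and the glucose carrier SLC2A2 (189 ± 5.67 CPM) were the highest. The bile salt pump ABCB11, the bile salt uptake carrier SLC10A1, the organic anion carrier SLCO1B1 and the glycerol channel AQP9 had 0 counts, as did SLC17A1, SLC38A4 and SLC51B.

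The transcription factors of the liver were largely present, with 49 of 53 (92.5%) counted in every library and 2 at 0, beside 58.3% and 31.2% of protein-coding genes. MLXIPL, which responds to glucose, was the highest at 439 ± 79.2 CPM. The core hepatic factors CEBPA (129 ± 5.54 CPM), FOXA2 (113 ± 12 CPM) and HNF4A (102 ± 11.5 CPM) were close to one another. NR1H4, the bile acid receptor, was at 48.0 ± 4.10 CPM, NR1I2, a xenobiotic receptor, at 3.82 ± 0.895 CPM, and its relative NR1I3 had 1 count over the 5 libraries. NR1H4, NR1I2 and NR1I3 were named after their values were seen. ESRRG and SALL4 had 0 counts.

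**Figure D2:**
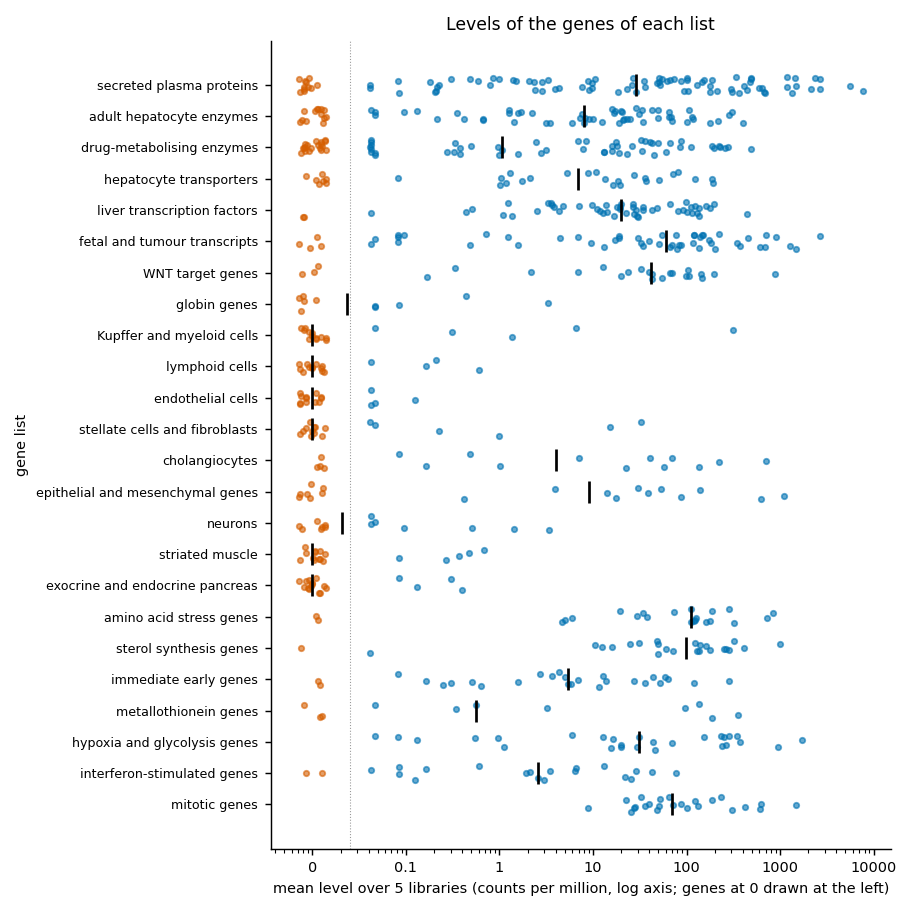
Mean level of each gene over the 5 untreated libraries (CPM, log axis) for 24 gene lists, with genes at 0 counts in orange at the left of the dotted line and a black tick at the median of the list. Secreted plasma proteins reach 7673 CPM, whereas the median of the myeloid, lymphoid, endothelial and stellate lists is 0.

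Fetal and tumour transcripts took 1.03% of counts in replicate 1, the lowest library, and up to 1.37% in the highest. This share includes AFP, which ran from 984 CPM in replicate 1 to 4027 CPM in replicate 4. The list as a whole was not lower in replicate 1 to that degree. Over its 33 members with a mean of at least 20 CPM, the median log2 difference of replicate 1 from the other libraries was -0.04. Of 54 genes in the table, 43 (79.6%) were counted in every library and 4 (7.41%) were at 0, beside 58.3% and 31.2% of protein-coding genes. The median was 60.5 CPM, beside 3.92 CPM over all protein-coding genes. AFP was the highest, followed by the proliferation gene TOP2A (1473 ± 130 CPM) and by IGF2, the fetal growth factor (1269 ± 72.1 CPM). The imprinted genes PEG10 (913 ± 77.5 CPM) and PEG3 (686 ± 157 CPM) were abundant, whereas DLK1 and MEG3, a further imprinted pair, had 2 counts and 1 count over the 5 libraries. Secreted SPP1 (osteopontin) was at 710 ± 30.7 CPM, and the chromatin proteins HMGA1 and HMGA2 were at 458 ± 19.3 and 344 ± 11.4 CPM. The RNA-binding proteins IGF2BP1, IGF2BP2 and IGF2BP3 were at 175 ± 14.9, 151 ± 5.82 and 78.3 ± 9.26 CPM. LIN28B, which blocks maturation of let-7 microRNAs, was at 65.8 ± 6.2 CPM, whereas its paralogue LIN28A had 0 counts, as did SALL4, SOX11 and THY1. MEG3, DLK1, IGF2BP2, IGF2BP3 and LIN28B were named after their values were seen.

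Mitotic genes were all present, with 24 of 24 counted in every library beside 58.3% of protein-coding genes, a median of 69.1 CPM and 0.433 to 0.498% of counts. TOP2A, CENPF (628 ± 62.5 CPM), MKI67 (604 ± 44 CPM) and AURKA (426 ± 39.2 CPM) led. Among 24 target genes of WNT signalling, 19 (79.2%) were counted in every library and 3 (12.5%) were at 0, beside 58.3% and 31.2% of protein-coding genes. BMP4 was the highest at 886 ± 165 CPM, and the feedback inhibitors NKD1, RNF43 and AXIN2 were at 142 ± 12.7, 106 ± 4.53 and 67.3 ± 11 CPM. LEF1 and APCDD1, targets in many other tissues, had 0 counts, as did CYP1A2.

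Fetal or general forms of a protein were set beside a form taken as that of adult liver in 18 pairs. This assignment was made by choice and not measured here, as no adult liver was sequenced. The fetal or general form had the higher count in all 5 libraries in 11 pairs, the adult form in 4, and 3 were mixed or tied. In 1 of the 11, CYP3A7 and CYP3A4, the difference was within the 3 counts that a count of 0 allows in replicates 1 and 3. For 15 pairs the exact two-sided sign-flip permutation test over the 5 libraries gave p = 0.0625, the smallest p it can give, so that no pair can pass 0.05 and the sizes and ranges are what is described. IGF2 was at 1147 to 1328 CPM and its adult counterpart IGF1 at 0.839 to 1.64 CPM (4 to 8 counts per library), a ratio of means of 1069. In glycolysis, the general pyruvate kinase PKM (301 to 502 CPM) was 44.4 times the liver form PKLR (6.39 to 9.44 CPM). The log2 ratio of PKM to PKLR was 5.79 in replicate 1 and 5.16 to 5.53 in the others. GYS1 (muscle-type glycogen synthase) at 23.5 ± 2.25 CPM was at least 36.6-fold higher than GYS2 at 0, against a floor of 3 counts per library.

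In nitrogen metabolism, the branched-chain aminotransferase BCAT1 stood at 33.0 ± 7.24 CPM and BCAT2 had 2 to 4 counts per library, at the floor, so that no ratio is given. CAD, which starts pyrimidine synthesis, was 2.72 times CPS1, which starts the urea cycle. The log2 ratio of CAD to CPS1 was 2.25 in replicate 1, where CPS1 was low, and 1.21 to 1.48 in the others. ARG2, the mitochondrial arginase, was at 6.30 ± 1.04 CPM and at least 9.82-fold higher than ARG1 at 0. The fetal P450 enzyme CYP3A7 had 3, 5, 2, 10 and 16 counts in replicates 1 to 5 and CYP3A4 none. The glucose carriers SLC2A1 and SLC2A2 were close, at 182 and 180 CPM in replicate 1 and 295 and 187 CPM in replicate 4, and the ratio of means was 1.25.

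The adult form was the higher one in the remaining 4. MAT1A, the liver methionine adenosyltransferase, was 2.34 times MAT2A (117 ± 8.63 against 49.98 ± 12.5 CPM), and the liver glycogen phosphorylase PYGL was 1.58 times PYGB. The liver phosphofructokinase PFKL (46.4 ± 8.44 CPM) was at least 72.4-fold higher than PFKP, which had 0 to 2 counts per library. LDHA, the lactate dehydrogenase subunit predominant in liver and muscle, was at 144, 380, 284, 352 and 245 CPM and LDHB at 0, which is at least 438-fold higher. GSTP1 and GSTA1 had at most 1 and 4 counts in a library, and HBG1 and HBB at most 2 and 0, so that no ratio is given for either pair.

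Most markers of other liver cells were absent or nearly so. Over all protein-coding genes, 31.2% were at 0 and 58.3% were counted in every library. The cultures were of a single hepatoma line, so that a count of such a marker is not read here as a sign of other cells. Of 17 Kupffer and myeloid markers, 12 were at 0, among them PTPRC, CSF1R, CD163, MARCO and VSIG4, and the summed level of 280 to 392 CPM was carried by LYZ (lysozyme) at 317 ± 47.6 CPM, with CD68 at 6.56 ± 1.73 CPM. Of 16 lymphoid markers 12 were at 0 and none was counted in every library, and the same held for 16 endothelial markers, with summed levels of at most 1.71 and 0.427 CPM. Of 17 stellate cell and fibroblast markers 11 were at 0, including the collagens COL1A1, COL1A2 and COL3A1, and ACTA2 (32.4 ± 6.27 CPM) and TAGLN (15.1 ± 1.77 CPM) made up most of the sum. Globins summed to 3.09 to 4.71 CPM over 10 genes, with HBB and HBA2 at 0.

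Bile duct markers were divided. SPP1, EPCAM (220 ± 20.9 CPM) and SOX9 (135 ± 20.8 CPM), all of which are also made by hepatoblasts, were present, whereas KRT7, CFTR, AQP1 and TFF1 had 0 counts and KRT19 was at 0.487 ± 0.402 CPM. Of 51 keratin genes, 5 were counted in every library and 41 were at 0, beside 58.3% and 31.2% of protein-coding genes. KRT18 (621 ± 46.2 CPM) and KRT8 (141 ± 10.1 CPM), the keratin partners of simple epithelia, were the highest. Fibronectin (FN1) was at 1113 ± 97.3 CPM, N-cadherin (CDH2) at 53.1 ± 3.19 CPM, E-cadherin (CDH1) at 30.2 ± 6.29 CPM and vimentin (VIM) at 0. Neuronal, striated muscle and pancreatic lists had 3 of 14, 2 of 17 and 1 of 18 genes counted in every library, beside 58.3% of protein-coding genes.

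Transcripts of sterol synthesis, amino acid stress and glycolysis were largely present at rest, beside 58.3% of protein-coding genes counted in every library. Of 24 sterol synthesis genes, 22 were counted in every library, with ACAT2 at 416 ± 35.5 CPM and a median of 97.7 CPM. INSIG1, a sterol-regulated retention protein of the endoplasmic reticulum, was the 1 gene of this list listed at 0. Of 22 amino acid stress genes, 20 were counted in every library, led by the transcription factor ATF4 (848 ± 99.7 CPM) and the secreted GDF15 (729 ± 45.5 CPM), whereas CHAC1 and FGF21 had 0 counts. Of 27 hypoxia and glycolysis genes, 23 were counted in every library, with GAPDH at 1728 ± 289 CPM and ENO1 at 945 ± 80.1 CPM.

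Metallothioneins, which bind zinc and copper, were carried by 4 of 11 genes, with MT2A at 354 ± 28.1, MT1E at 189 ± 32.8, MT1G at 136 ± 10.5 and MT1F at 96.4 ± 6.17 CPM. These genes are near-identical in sequence, so that the division of reads among them is uncertain. Of 21 interferon-stimulated genes, 13 (61.9%) were counted in every library, near the 58.3% of protein-coding genes, with a median of 2.55 CPM beside 3.92 CPM and none at 100 CPM or more, and all 17 type I interferon genes had 0 counts. Of 27 immediate early genes, 20 (74.1%) were counted in every library, with IER3 at 287 ± 32.5 CPM as the highest and a median of 5.45 CPM, whereas EGR3 and KLF4 had 0 counts.

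Families with restricted expression made up part of the silent genes. Of 382 olfactory receptor genes, 374 were at 0 and none was counted in every library, beside 31.2% of protein-coding genes at 0. At 0 were also 87 of 92 keratin-associated protein genes, 17 of 18 late cornified envelope genes, 82 of 87 genes of cancer-testis families and 17 of 24 bitter taste receptor genes. Of 38 beta-defensin genes, 36 were at 0, and DEFB1, which epithelia make constitutively, was the exception at 35.0 ± 2.97 CPM. HOX genes, which set position along the body axis, were mixed. Of 40, 14 were counted in every library and 16 were at 0, beside 58.3% and 31.2% of protein-coding genes. HOXA3 (37.3 ± 9.72 CPM), HOXA4 (33.6 ± 2.52 CPM) and HOXC9 (28.0 ± 2.49 CPM) were the highest.

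Reads over overlapping genes may not be assigned to either, so overlaps were counted for the 3′ ends (the last 500 transcribed bases, GENCODE on GRCh38) of protein-coding genes. An exon of another gene overlapped on the same strand in 8.30% of genes at 0 in all libraries and in 2.13% of those counted in every library, and on the opposite strand in 6.06% and 13%. Over both strands the shares were 13.3% and 14.8%. The authors report default settings for the pipeline, and its strand setting is not named in the sources used here. The part of overlap in the counts of 0 was not tested. EEF1A1, an abundant translation factor with many near-identical copies in the genome, was at 88.9 ± 32.6 CPM, well below most ribosomal proteins, whose median over the family was 636 CPM. EEF1A1 was singled out after its value was seen, and its level is uncertain because of these copies.

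The spread between cultures beyond counting error was summarised as the biological coefficient of variation, estimated with edgeR. Its median was 0.142 over 11598 genes with all 5 libraries and 0.108 without replicate 1. Among the 6066 genes with a mean of at least 20 CPM and a count in every library the median was 0.119, and the medians of the lists ran from 0.108 for 4 metallothionein genes to 0.138 for 15 WNT target genes and 0.140 for 15 hypoxia and glycolysis genes, with 0.120 for 50 secreted plasma proteins, 0.118 for 25 adult hepatocyte enzymes, 0.115 for 33 fetal and tumour transcripts and 0.115 for 23 mitotic genes. AFP was the exception among the hepatic markers, at 0.312, the 14th highest of these genes, beside 0.147 for ALB, 0.124 for APOB and 0.121 for APOA1. Without replicate 1 the value for AFP was 0.155. In simulated libraries these estimates were drawn toward the trend, with genes made at 0.6 returned at a median of 0.326 and genes made at 0.1 returned at 0.132. The largest values may therefore be understated, low values overstated, and the medians of lists drawn together. The simulated libraries mixed 200 genes at 0.6 with all others at 0.1. In these data the 95th percentile of the estimates was 0.175, so that the size of this pull here was not tested.

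The 15 most variable genes included humanin-like genes, which are near-identical copies of mitochondrial ribosomal RNA sequence and whose counts are therefore uncertain. MTRNR2L2 had 13053, 145, 13403, 122 and 64 counts in replicates 1 to 5, high in 2 libraries and low in 3, and MTRNR2L8 and MTRNR2L4 were also among the 15 most variable. EIF3C, a translation initiation factor with a near-identical copy in EIF3CL, had 17, 527, 379, 47 and 326 counts. Others were low in replicate 1, such as the succinate dehydrogenase subunit SDHC (28, 104, 224, 320 and 213 counts), C5orf15 (40, 161, 298, 479 and 285 counts), the chromatin protein RCC2 (100, 250, 369, 518 and 396 counts) and AFP. FAM107A, named after its values were seen, had 1526 counts in replicate 3 and 0 in each of the others.

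Genes low in replicate 1 followed a common profile. In replicate 1, 106 of 6066 genes (1.75%) were more than 2-fold below the mean log2 level of the other 4 libraries and 3 (0.0495%) more than 2-fold above it. In replicates 2 to 5 the numbers below were 1, 1, 3 and 2, and those above 3, 3, 9 and 4. Of the 106 genes, replicate 1 was the lowest library for all 106, as the choice of genes favours. Among the other 4 libraries, replicate 2 was the lowest for 96 genes, and replicate 4 was the highest library for 77. The median difference from the mean of the 5 libraries, on the log2 scale, was -1.01, -0.13, 0.28, 0.50 and 0.35 in replicates 1 to 5. This order was not counted gene by gene over all 6066 genes. The main axis of variation over all 6066 (first principal component of log2 levels, 61.8% of variance) placed the libraries in the same order. Its weights were 0.83, 0.09, -0.22, -0.42 and -0.29 in replicates 1 to 5, with an arbitrary sign. How far the 106 genes set this axis was not tested. AFP, with a difference of -1.62 between replicate 1 and the mean log2 level of the others, was the most abundant of the 106. Genes of general cell functions were among them, such as RPS7 (-1.60), the mitochondrial chaperone HSPE1 (-1.15), the iron-storage heavy chain FTH1 (-1.03) and LDHA (-1.11). ALB, APOB and APOA1 were not.

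The deviation of replicate 1 moved with base composition. Over 5997 genes with a 3′ end sequence, Spearman's rho between the deviation and the GC content of the last 500 bases was 0.32 across genes, which are not independent replicates. The median deviation on the log2 scale was -0.07 in the lowest of 5 near-equal groups by GC content (median 30.6%) and 0.22 in the highest (median 57.6%). GC content was 27.8% for AFP and 33.6% for ALB. The 106 low genes were spread over these groups, with 17, 24, 29, 28 and 8 from the lowest to the highest GC content. The part of base composition, of RNA quality or of the state of the cells in the profile of replicate 1 was not tested.

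**Figure D3:**
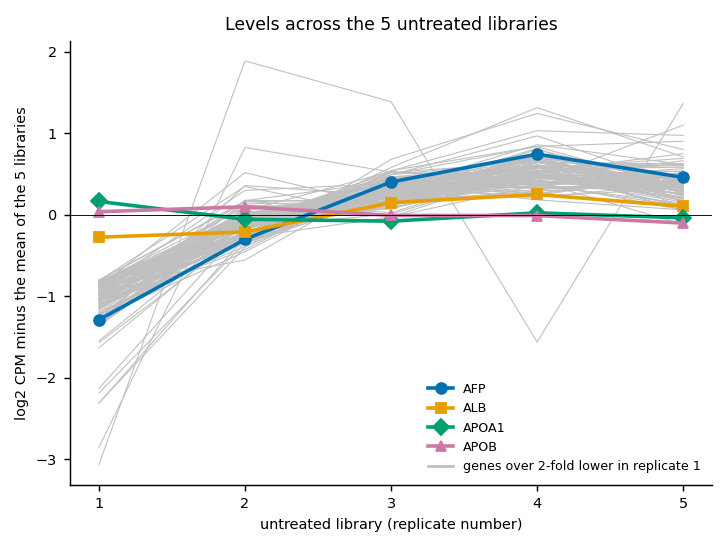
Log2 CPM of each gene minus its mean over the 5 untreated libraries (vertical axis), by replicate number, for the 106 genes more than 2-fold lower in replicate 1 (grey lines) and for 4 hepatic markers (coloured). AFP runs with the grey lines, at a log2 difference of -1.62 between replicate 1 and the others, while APOB and APOA1 stay near 0.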

How the data were processed

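Total RNA of HepG2 cells was turned into QuantSeq 3′ mRNA-Seq (FWD) libraries. The authors processed the reads with the nf-core RNA-Seq pipeline on hg19 with Ensembl transcript definitions and deposited raw counts per gene, with no normalization and no filter on low values. The aligner and counter of these settings are not named in the sources used here. Near-identical or overlapping genes can lose counts in such a table. Per the labels, the 5 control libraries were grouped, and the 5 tunicamycin libraries were not analysed here. Depth was 4242538 to 4888292 counts per library. A count of 0 allows up to 3 counts, and this limit covers counting error only.

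Counts were divided by the column total and multiplied by 1000000 (CPM) in python 3.11.15. Spread was estimated with edgeR 4.0.16 in R 4.3.3 (TMM scaling, an intercept alone, low genes removed by filterByExpr at min.count 2 and min.total.count 10), and with DESeq2 1.42.0 as an alternative, and was tested on simulated data. There, 11470 genes made at a value of 0.15 were returned at a median of 0.148, and 191 of 200 genes made more variable were ranked among the top 200. Pairs of genes were compared by exact sign-flip permutation tests over the 5 libraries. Named genes were the 6 markers, the 30 most abundant, all pair members, the highest 8 members and the members at 0 of each list, the 15 most variable genes of at least 20 CPM and the leading members of families. The members and lists were chosen with earlier results of these data known. Listed symbols without a row were not analysed here, and some listed genes that enter the counts and medians are not reported here by name. Promoters are from RefSeq (GRCh38.p14) and gene positions from GENCODE (GRCh38), and no hg19 coordinate is printed. Alternatives covered detection rules, thinning to the smallest library, scaling, filters and leaving out each library.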

Additional observations from a re-analysis of the deposited data

Results flagged for a closer look

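In each group of 5 values the gap between the most extreme library and its nearest neighbour was divided by the whole range and set against Dixon's critical value of 0.71. This was done for 76 measures, and 5 exceeded it, beside about 1 in 20 expected from chance. MT-ATP8, which overlaps MT-ATP6 on the mitochondrial genome, was at 25237 CPM in replicate 2 and at 14940 to 16578 CPM in the other libraries. MT-ND5 was at 7117 CPM in replicate 2 and at 5575 to 5743 CPM in the others. PKM was at 502 CPM in replicate 1 and at 301 to 351 CPM in the others. CPS1 was at 9.61 CPM in replicate 1 and at 17.4 to 20.5 CPM in the others. GYS1 was at 19.6 CPM in replicate 3 and at 23.7 to 25.4 CPM in the others.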

How the results depend on the processing

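Of 105 values recomputed under alternatives, 94 met loose rules for unchanged. Counts had to stay within a set fold, and the AFP to ALB ratio had to keep its sign. Mean levels and shares had to move by less than 1 SD. The biological coefficient of variation had to move by less than the SD of its values with each library left out. Leaving out 1 of 5 libraries cannot move a mean by 1 SD, so for levels and shares those checks could only pass. The number of genes holding 50% of counts was 262 (258 to 267 with a library left out), and 678 on the total without mitochondrial transcripts, and the share of secreted plasma proteins was 3.84%, and 5.05% on that total. The levels of 5 of the 6 markers were higher by more than 1 SD on the same total. The mean log2 ratio of AFP to ALB turned from -0.12 to 0.13 without replicate 1, and ranged from -0.24 to 0.13 over the fits that leave out a library. The median biological coefficient of variation of 0.142 was 0.183 with no filter on low counts and 0.162 with DESeq2 dispersions. It ranged from 0.108 (without replicate 1) to 0.155 with each library left out. Detected genes ranged from 10138 with the default minimums of filterByExpr to 16453 with a count in any library. No paired analysis was possible because the control libraries alone were used and no groups were compared. The depth limits statements on genes below about 0.7 CPM, and the same-number pairing of libraries was not used.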
